A study of Mus musculus with 3 samples.

Results

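The genes described here encode the enzymes that make and use glutathione, the thioredoxin system, the peroxidases, the superoxide dismutases, catalase and the regulators of this defence. They were chosen by symbol alone, as every gene of the deposited table named as a glutathione S-transferase (GST), microsomal GST, glutathione peroxidase, peroxiredoxin, superoxide dismutase or thioredoxin reductase, plus Txn1, Txn2, Txnip, Gclc, Gclm, Gss, Gsr, Cat, Nqo1, Nfe2l2, Keap1 and Srxn1. The rule found 59 of 27179 genes, of which 58 are protein-coding and 1, Gpx2-ps1, is a transcribed pseudogene. RNA came from adipose stem and progenitor cells of the epididymal fat of naive wild-type C57B6 male mice aged 12 weeks. Collagenase-digested stroma was sorted for living cells with CD140a, Sca1 and podoplanin (PDPN) and without CD45, CD31 and Ter119. The 3 libraries form 1 group, with no other genotype, treatment or tissue. The labels mention 3 mice but do not tie a library to a mouse, and differences among libraries, and p-values drawn from them, may therefore be partly technical.

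Superoxide dismutases turn superoxide into hydrogen peroxide, which catalase, glutathione peroxidases and peroxiredoxins then reduce to water. Many glutathione peroxidases, though not all, take their electrons from glutathione, and most peroxiredoxins take theirs from thioredoxin. Both carriers are recharged with NADPH by glutathione reductase and thioredoxin reductases. GSTs join glutathione to reactive lipids and foreign compounds. The transcription factor NRF2, encoded by Nfe2l2 and held low by KEAP1, switches on many of these genes under oxidative stress.

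The glutathione peroxidases and thioredoxin reductases are shown first by the codon of their reactive residue, because this splits them into selenium and sulfur enzymes. Each line gives coding sequence 5′ to 3′ (GENCODE M21, GRCm38) with that codon in capitals. TGA there is annotated as selenocysteine, while TGT and TGC encode cysteine.
Gpx1: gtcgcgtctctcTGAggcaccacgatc
Gpx3: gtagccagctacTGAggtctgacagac
Gpx4: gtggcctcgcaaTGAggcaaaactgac
Gpx7: gtagctagcgaaTGTggcttcacagac
Gpx8: gtggctagtgacTGCcgcttcacagac
Txnrd1: cagtctggctgcTGAggttaa
Txnrd2: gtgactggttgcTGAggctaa
Txnrd3: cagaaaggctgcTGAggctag
In the reductases this TGA is the last codon but one before the stop, at position 612 of 613 in Txnrd1. In Gpx1 it is codon 47 of 201, at chr9:108339451-108339453 on the plus strand. In Gpx8 the cysteine codon is number 79 of 209, at chr13:113045661-113045663 on the minus strand. Of the 8 protein-coding peroxidases, Gpx1, Gpx2, Gpx3 and Gpx4 have the selenocysteine codon and Gpx5, Gpx6, Gpx7 and Gpx8 a cysteine codon.

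The libraries held 32813373, 25060096 and 27275888 counts, so that 3 counts, the limit a count of 0 allows, came to 0.0945, 0.119 and 0.107 CPM (read counts scaled to a common library size, with TMM factors, and not corrected for gene length). That limit covers counting error only, because the reads carry no molecular identifiers. All 6 marker genes of the sorted stroma were detected, a word used here for genes whose level reached 1 CPM in all 3 libraries. Detected markers numbered 1 of 8 for leukocytes and macrophages (Ptprc, the CD45 gene, at 5.42, 15.8 and 7.68 CPM), 0 of 6 for endothelium, 0 of 4 for erythroid cells, 1 of 7 for mesothelium, 0 of 6 for mature adipocytes, 0 of 5 for mural cells and 0 of 7 for epididymal epithelium. All 10 genes induced by handling were detected and summed to 15668, 19691 and 17924 CPM. In pooled cells, a low level in every cell and a high level in few cells cannot be told apart.

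Most antioxidant genes were detected, and a few carried most of the reads. Of the 59 members, 42 (71.2%) were detected, beside 35.0% of all genes in the table and 43.7% of its protein-coding genes. Another 6 reached 1 CPM in some libraries only, 4 had counts but stayed below 1 CPM throughout, and 7 had 0 counts. At 20 CPM, 30 members (50.8%) were still detected, beside 17.4% of all genes. The members summed to 16713, 13680 and 12699 CPM. Mgst1, Gstm1, Prdx1, Txn1 and Gpx8 together held 66.8%, 61.4% and 57.7% of that sum.

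**Figure D1:**
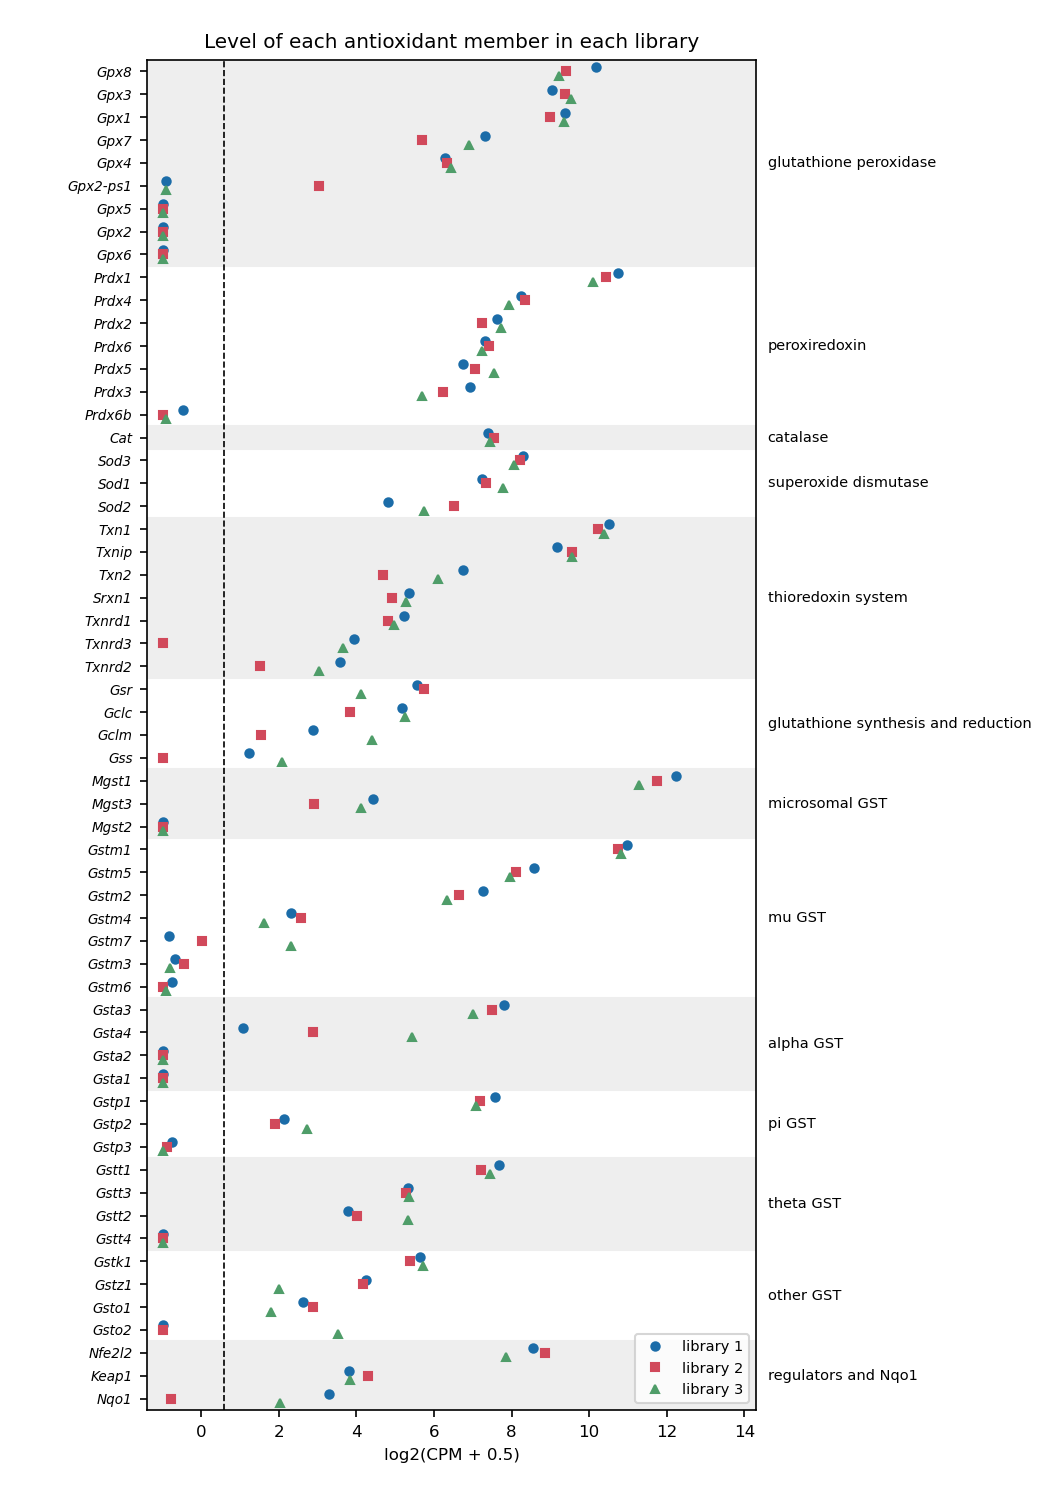
Level of each of the 59 members as log2(CPM + 0.5) on the horizontal axis, with members grouped by family and 1 symbol per library; the dashed line is 1 CPM. Mgst1 lies highest, the 7 members with 0 counts lie at the left edge, and symbols spread more among low members such as Gsta4 and Gclm than among high ones such as Gstm1.

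Among the glutathione peroxidases, Gpx8, Gpx3 and Gpx1 drew the most reads. Gpx8, which encodes a membrane-bound peroxidase of the endoplasmic reticulum, had 1162, 679 and 598 CPM. Gpx1, the cytosolic enzyme, had 662, 510 and 653 CPM. Gpx3, whose product is secreted into plasma and matrix, had 528, 659 and 738 CPM. Libraries 2 and 3 were close to each other for Gpx8, while library 1 stood above both, by 0.86 ± 0.24 (SE) on the log2 scale (edgeR quasi-likelihood test, unadjusted p = 0.0076, Benjamini-Hochberg adjusted p = 1.0). Gpx7, the other peroxidase of the endoplasmic reticulum, had 160, 51.1 and 120 CPM, lowest in library 2. Gpx4, which reduces peroxides within membranes, was level at 77.5, 79.9 and 86.8 CPM. Of its transcript sequence, 34.7% in stretches of 50 bases also occurs in other genes, among them the pseudogene Gpx4-ps2, so reads could have been lost or gained in counting.

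Split by the codons shown above, the selenocysteine peroxidases summed to 1267, 1249 and 1478 CPM and the cysteine peroxidases to 1322, 730 and 718. The cysteine sum was the larger of these in library 1 only. Gpx2, the intestinal enzyme, and Gpx5 and Gpx6, which lie side by side on chromosome 13, had 0 counts in every library. Gpx5 is known as a product of the epididymis, the organ next to this fat pad. The pseudogene Gpx2-ps1 had 1, 193 and 1 counts, almost all in library 2. It shares 36.8% of its 50-base stretches with Gpx2, which had none.

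All peroxiredoxins apart from the Prdx6 copy Prdx6b were detected. Prdx1, the main cytosolic form, had 1717, 1373 and 1091 CPM, with the libraries in the same order as for Mgst1. Prdx4, the secretory-pathway form, followed with 303, 323 and 245 CPM, then cytosolic Prdx2 with 196, 151 and 211. Prdx6, which also acts on phospholipids, was among the steadiest members, at 158, 169 and 150 CPM (coefficient of variation 6.02%). The mitochondrial form Prdx3 and the mitochondrial and peroxisomal form Prdx5 lay in opposite library orders. Prdx3 stood highest in library 1, with 121, 74.8 and 51.2 CPM, and Prdx5 stood highest in library 3, with 106, 132 and 188. Prdx6b had 8 counts in all. The exons of Prdx5 overlap those of Trmt112 on the opposite strand by 409 bases and those of Prdx2 overlap Junb and Rnaseh2a, and strand use in counting is not given, so reads of these partners cannot be told apart. Catalase, the peroxisomal enzyme encoded by Cat, was steady at 167, 188 and 172 CPM.

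The 3 superoxide dismutases were all detected. Sod3, the extracellular enzyme, had 312, 295 and 265 CPM. Sod1, the cytosolic copper and zinc enzyme, had 151, 161 and 220 CPM. Sod2, the mitochondrial manganese enzyme, had 27.5, 91.5 and 53.3 CPM and varied most, with library 2 highest and library 1 lowest, a ratio of 3.32. Of its 50-base stretches 21.0% occur in other genes, so reads could have been lost or gained in counting. The comparison of library 1 or library 2 with the remaining pair was not called for Sod2 (edgeR quasi-likelihood test, adjusted p = 1.0 and 0.97). Ccs, the gene of the chaperone that loads copper into SOD1, had 10.9, 17.7 and 46.4 CPM, highest in library 3 as Sod1 was.

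Within the thioredoxin system, the levels per kilobase of exon were 1267 for cytosolic Txn1, 221 for its inhibitor Txnip and 4.48 for the reductase Txnrd1. Txn1 had 1466, 1197 and 1331 CPM. Txnip, whose product binds thioredoxin and restrains glucose uptake, had 572, 749 and 752 CPM, lowest in library 1. Its exons overlap the opposite-strand gene Gm15441 by 606 bases. Txn2, the mitochondrial thioredoxin, had 106, 25.3 and 67.7 CPM. Txnrd1, the cytosolic reductase, had 36.8, 27.7 and 30.7 CPM, and Srxn1, which repairs over-oxidised peroxiredoxins, had 40.4, 29.6 and 38.2. The other reductases varied more. Mitochondrial Txnrd2 had 11.4, 2.34 and 7.68 CPM and Txnrd3 had 14.8, 0 and 12.0, so that both, like Txn2, were lowest in library 2. Library 2 had 0 counts of Txnrd3 against 471 and 336 in the others (edgeR quasi-likelihood test, unadjusted p = 0.0019, adjusted p = 0.79).

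The enzymes that build glutathione drew few reads. Gclc, the catalytic subunit of the first and rate-limiting step, had 35.8, 13.8 and 37.5 CPM. Gclm, its modifier subunit, had 6.80, 2.42 and 20.7 CPM, and its mean of 9.98 was 4.55 without library 3. Gss, the enzyme of the second step, had 58, 0 and 105 counts, which is 1.83, 0 and 3.75 CPM. All 3 genes were lowest in library 2, with a highest library 2.73 times the lowest for Gclc and 8.57 times for Gclm. Gss exons overlap those of Acss2 and of 2 antisense genes on the opposite strand. Gclm exons overlap Gm6061 on the same strand by 244 bases and Gm17494 on the opposite strand by 296. Of the 50-base stretches of Gclm, 3.9% occur in other genes, so its reads could also have been lost or gained in counting. Gsr, glutathione reductase, had 47.0, 52.9 and 16.7 CPM and was lowest in library 3 instead.

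The GSTs were led by Mgst1, Gstm1 and Gstm5, and 16 of the 25 GST genes were detected. Mgst1, a membrane enzyme with transferase and peroxidase activity (chr6:138140527-138156755, GRCm38), had 4824, 3431 and 2485 CPM. It held 28.9%, 25.1% and 19.6% of all members' reads and ranked 26 among all genes with an exon length in CPM per kilobase of exon. Library 1 exceeded the other pair by 0.71 ± 0.23 (SE) on the log2 scale (edgeR quasi-likelihood test, unadjusted p = 0.016, adjusted p = 1.0). Without Mgst1, the members' sum was 11888, 10249 and 10214 CPM, so library 1 stayed highest. Its relatives differed, since Mgst3 had 20.9, 6.94 and 16.8 CPM and Mgst2 had 0 counts.

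The mu-class genes showed a wide range within a single cluster. All 7 lie on chromosome 3 between 107895854 and 108045179 (GRCm38), a span of 149 kb. Gstm1 had 1996, 1726 and 1817 CPM, a coefficient of variation of 7.46%. Gstm5 had 382, 276 and 248 CPM and Gstm2 had 154, 99.7 and 80.5, both highest in library 1. Gstm4 reached 4.44, 5.43 and 2.57 CPM, while Gstm7 passed 1 CPM in library 3 alone, with 2, 13 and 124 counts. Gstm3 and Gstm6 had 12 and 4 counts in all. Reads of close copies can be moved or dropped in counting: 18.9% of the 50-base stretches of Gstm1 and 28.8% of those of Gstm3 occur in other genes.

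Among the remaining GST classes, the alpha class was represented mainly by Gsta3, with 224, 179 and 129 CPM, while Gsta1 and Gsta2 had 0 counts. Of their 50-base stretches 90.5% and 49.8% occur in other genes, and the part of shared reads in these zeros was not tested. Gsta4, which detoxifies the lipid aldehyde 4-hydroxynonenal, had 1.61, 6.82 and 42.9 CPM, the widest spread of any detected member. Library 3 held 1202 of its 1425 counts, and its mean of 17.1 CPM was 4.16 without that library (edgeR quasi-likelihood test for library 3, adjusted p = 0.89). In the pi class Gstp1 had 189, 146 and 136 CPM and its neighbour Gstp2 3.87, 3.21 and 6.14, and 33.7% and 54.3% of their 50-base stretches occur in other genes. In the theta class Gstt1 had 204, 147 and 173 CPM and Gstt3 had 39.8, 38.0 and 40.7, the smallest coefficient of variation among detected members (3.38%). Of the 50-base stretches of Gstt3, 12.5% occur in other genes, and its exons overlap Gm20441 on the same strand by 524 bases. Gstt2 in the same cluster had 13.3, 15.7 and 39.4 CPM, highest in library 3, and Gstt4 had 0 counts. Gstk1, the kappa-class enzyme, had 49.2, 41.3 and 52.3 CPM. Gstz1, an enzyme of tyrosine breakdown, had 18.4, 17.4 and 3.50, and Gsto1 had 5.64, 6.82 and 2.96, both lowest in library 3. Gsto2 had 0, 0 and 308 counts.

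The gene of the regulator NRF2 was detected in every library, and that of its classical target Nqo1 was not. Nfe2l2 had 372, 466 and 232 CPM and Keap1, the adaptor that marks NRF2 for degradation, had 13.6, 19.1 and 13.7. Nqo1, a quinone reductase, had 293, 2 and 101 counts, which is 9.23, 0.0793 and 3.61 CPM, and its mean of 4.31 was 1.87 without library 1. Nfe2l2 was lowest in library 3, where Nqo1 was between the others, so these genes did not share an order of libraries. RNA level alone does not measure NRF2 activity, which is set largely by protein turnover.

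Levels of different members were compared per kilobase of exon, within each library, for 14 chosen pairs. Each mean difference below is on the scale of log2(CPM per kilobase + 0.5), ± SD over n = 3 libraries. An exact two-sided sign-flip permutation test over 3 libraries cannot go below p = 0.25, and 13 of the 14 pairs, those with 1 sign in 3 of 3 libraries, had that value (adjusted p = 0.27 over the 14). Gpx3 minus Gpx1, at -0.26 ± 0.36, changed sign between libraries (exact sign-flip permutation test, p = 0.5, adjusted p = 0.5). In the chosen pairs of a cytosolic and a mitochondrial form, the cytosolic form was the higher. Txn1 exceeded Txn2 by 6.49 ± 0.87, Prdx1 exceeded Prdx3 by 3.09 ± 0.29 and Sod1 exceeded Sod2 by 2.97 ± 0.78. For the reductases the difference was smaller, with Txnrd1 above Txnrd2 by 1.36 ± 0.65. Cytosolic Prdx2, not paired with mitochondrial Prdx3, had 64.2, 49.5 and 69.1 CPM per kilobase. Prdx3 had 81.7, 50.6 and 34.7, higher in libraries 1 and 2 only. On the length of the transcript with the longest coding sequence, Prdx2 had 131, 101 and 141 CPM per kilobase. Prdx3 kept its values on that length, so Prdx2 was then the higher in every library. The order of Prdx2 and Prdx3 thus depended on the length used.

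Other pairs compared steps of the same pathway. Gclc exceeded Gclm by 2.12 ± 0.61 and Gss by 3.30 ± 0.30, and Gsr exceeded Gss by 4.09 ± 1.42. As Gss had 0 counts in library 2, these last values depend on the pseudocount, and were 4.52 and 5.35 with 0.1 in place of 0.5. Other pairs of low members moved less, in the same direction. With 0.1, Gclc minus Gclm was 2.52 and Txnrd1 minus Txnrd2 was 1.63. Gpx1 exceeded Gpx4 by 3.14 ± 0.21 and Prdx1 exceeded Prdx2 by 2.89 ± 0.45. Nfe2l2 exceeded its partner Keap1 by 4.59 ± 0.37, while Txnip lay below Txn1, by -2.52 ± 0.36. Sod3 minus Sod1 was 0.81 ± 0.40 and Cat minus Sod1 was 0.61 ± 0.31. Both differences turned to -1.81 and -2.01 when length was that of the transcript with the longest coding sequence (641 bases for Sod1, against 3970 bases of merged exons), so they gave no stable order. On that length Prdx1 minus Prdx3 became 4.89, Sod1 minus Sod2 4.88 and Txn1 minus Txn2 4.84, with the same signs.

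**Figure D2:**
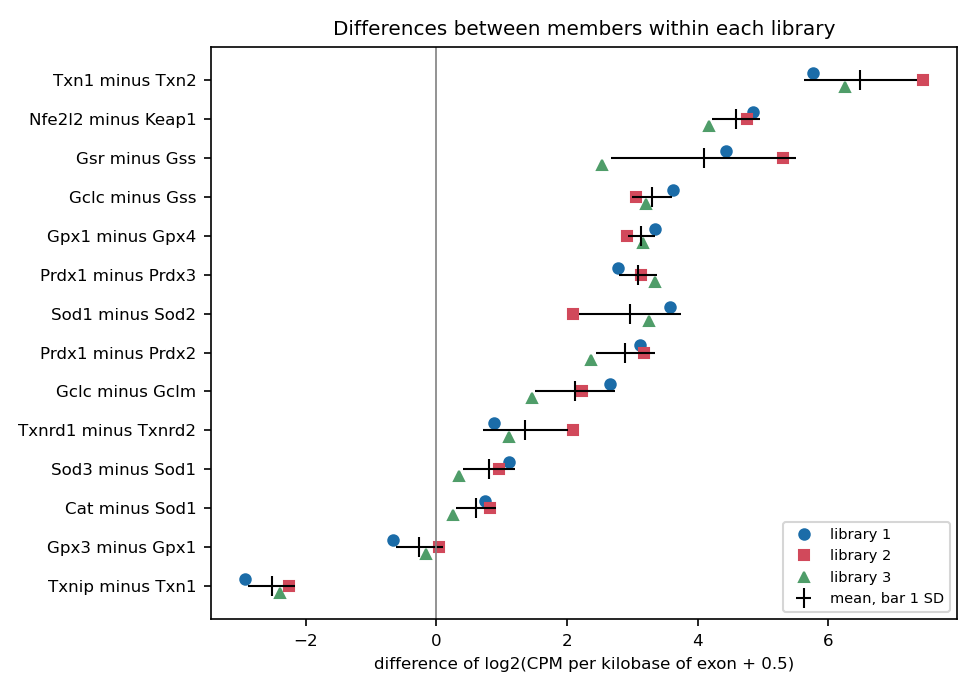
Differences of log2(CPM per kilobase of exon + 0.5) between members of 14 pairs on the horizontal axis, with 1 symbol per library, a black tick at the mean and a bar of 1 SD. All 3 libraries lie on the same side of 0 for each pair except Gpx3 minus Gpx1, and the Txn1 minus Txn2 difference of 6.49 is the largest.

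Per kilobase of merged exon, Mgst1 (1778 ± 585, n = 3), Txn1 (1267 ± 128) and Gstm1 (1253 ± 93.5) headed the members, and their libraries overlapped. Next came Gpx8 at 776 ± 291, which lay below Gstm1 and above Prdx1 (458 ± 103) in every library without overlap. Among the 37 members with a mean of 10 CPM or more, the libraries of 4 of the 36 neighbouring pairs in this order did not overlap, so most neighbours were not separated beyond their spread. Measured on the transcript with the longest coding sequence, 9 of the top 10 members were the same, Prdx1 (1589 ± 358) came before Gpx8 (780 ± 293), and Sod1 moved from place 22 to place 10.

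Libraries differed little for abundant members and much for low ones. Among the 22 members with a mean of 100 CPM or more, the median coefficient of variation was 17.4%, beside 18.0% for all 1761 genes at that level. For the 20 detected members below it the median was 44.3%, beside 38.4% for all such genes. Of the 42 detected members, 15 (35.7%) had a highest library more than 2-fold above the lowest, beside 46.7% of all detected genes. Library 1 was the highest for 20 of the 42, library 2 for 9 and library 3 for 13, while over all detected genes the shares were 32.7%, 33.2% and 34.1%. The lowest library was 1 for 10 members, 2 for 16 and 3 for 16, beside 33.9%, 32.7% and 33.5% of all detected genes. Nqo1, Txnrd2, Txnrd3, Txn2, Gclc, Gclm, Gss, Mgst3 and Gpx7 were all lowest in library 2, a group singled out after its values were seen. In that library the 10 handling-induced genes had their highest sum, 19691 CPM, but not all of them were highest there. Fos, Atf3, Hspa1a and Hspa1b were, and Hspa1b had 2777, 4683 and 2922 CPM. Egr1, Fosb, Jun, Junb and Ier2 were highest in library 3 and Nr4a1 in library 1, and Junb had 547, 507 and 668 CPM. The 8 leukocyte and macrophage markers had their highest sum in library 2, 19.7 CPM against 6.58 and 7.86, with C1qb at 0 throughout. Ptprc, at 15.8 CPM, held most of that sum. Csf1r, Cd68 and, with 1 count, Tyrobp were also highest in library 2, while Lyz2, Adgre1 and C1qa were highest in library 1. The 7 mesothelial markers had their lowest sum in library 2, 10.1 CPM against 20.7 and 21.4. Nkain4, the detected one, had 20.1, 2.42 and 17.8, while Krt18 went the other way, with 0.063, 7.61 and 3.43 CPM. Sums for mature adipocyte markers were 5.17, 9.39 and 0.0357 CPM and for epididymal markers 5.58, 7.37 and 0.179, both highest in library 2. Single genes carried most of these sums. Retn had 0.063, 6.5 and 0 CPM and Plin4 was also highest in library 2, but Car3 and Plin1 were highest in library 1. Lcn8 had 0, 7.29 and 0 CPM, while Rnase10 went the other way, with 5.51, 0 and 0.0714. The mural sum, 3.72, 2.89 and 9.11 CPM, was lowest in library 2, as were Cspg4 and Notch3. Acta2 was highest in that library, with 0.567, 2.38 and 1.14 CPM. The part of any of these in the levels was not tested.

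Calls of members between libraries depended on the tool. With edgeR's quasi-likelihood test, 13182 genes, 48 of them members, were compared between a library and the remaining pair, with the Benjamini-Hochberg threshold at 0.05. In all 3 comparisons 0 genes were called, 0.0% of those tested, with 510, 639 and 667 genes, and 3, 4 and 5 members, at an unadjusted p under 0.05. DESeq2's Wald test called 126, 199 and 195 genes (0.956%, 1.51% and 1.48%), among them 2, 1 and 1 members. Those members were Gpx8 (adjusted p = 0.047, DESeq2) and Gsto2 in library 1, Txnrd3 in library 2 (adjusted p = 0.0027, DESeq2) and Gsto2 in library 3. Gsto2 had 0, 0 and 308 counts, so for this gene library 1 equalled library 2 and only library 3 stood apart. Members pass the filter on low counts through their highest library, so a count of calls over them cannot be read as support for a difference. In simulated data for these comparisons, changes were planted only in genes with a mean of 10 CPM or more. The quasi-likelihood test recovered 23.5% to 29.5% of 4-fold and 68.5% to 72.5% of 16-fold changes there. Most 4-fold differences at that level would thus be missed. Lower members, such as Gclm, Nqo1 and Gsto2, are not covered by these shares. Among the called genes, the share without a planted change exceeded the threshold of 0.05 in each simulation.

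**Figure D3:**
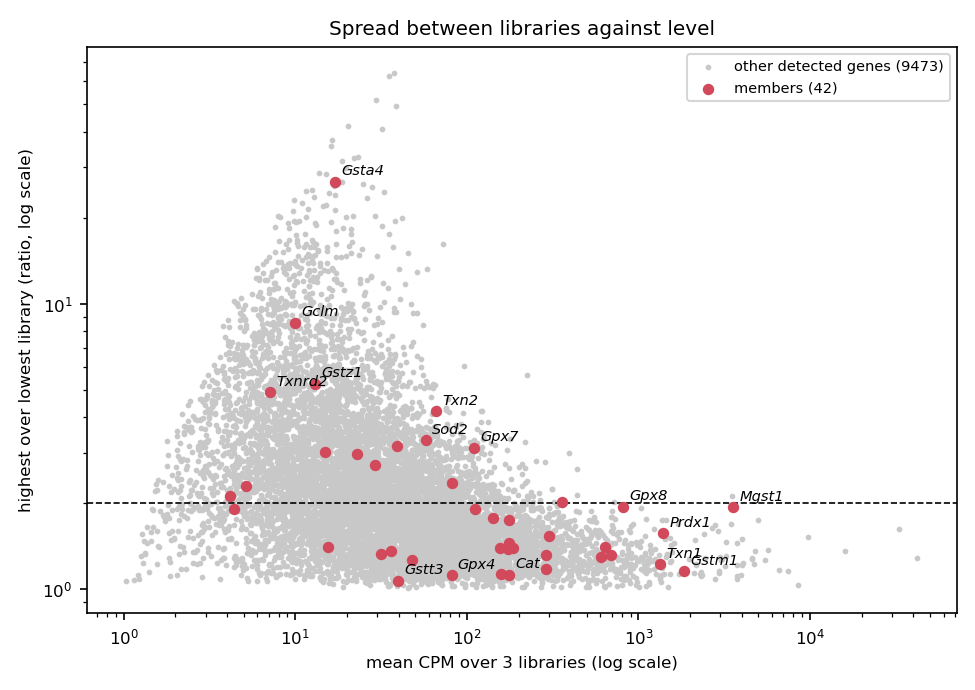
Ratio of the highest to the lowest library (log axis) against mean CPM (log axis) for the 42 detected members in red and the other detected genes in grey; the dashed line marks 2-fold. Gsta4 and Gclm lie highest among the members, and Mgst1, Gstm1, Prdx1 and Txn1, farthest to the right, lie below the line.

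Most other genes of the pathway were detected, and each of the 8 lists held at least 1 that was not. Of 14 NRF2 regulators, 13 were detected, led by the ubiquitin-ligase subunit gene Rbx1 (487 ± 22.3 CPM, n = 3), Sqstm1 (181 ± 6.93) and Cul3 (108 ± 52.3), and the median gene of the list had 34.1 CPM. The competing repressor gene Bach1 had 55.5, 39.0 and 18.6 CPM. Of 23 NRF2 target genes outside the members, 22 were detected, led by the ferritin heavy chain gene Fth1 (4564 ± 584), Ugdh (772 ± 186) and Esd (211 ± 61.1). The exception was Slc7a11, the cystine transporter that feeds glutathione synthesis, with 9 counts in all. Its partner chain Slc3a2 had 68.5 ± 5.04 CPM, and Hmox1, the inducible heme oxygenase, had 10.1, 11.3 and 5.79. Of the 116 genes of all 8 lists, 101 passed the filter on low counts and were tested. As over all genes, edgeR's quasi-likelihood test called none of them in any library comparison. The aldehyde oxidase gene Aox1, called in library 2 by DESeq2's Wald test only, had 83.9, 17.9 and 92.6 CPM.

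Of 21 genes of glutathione import, breakdown and use, 15 were detected. Dpep1, a surface dipeptidase that splits the cysteinyl-glycine left by glutathione breakdown, led with 673, 844 and 1004 CPM. The gamma-glutamyl enzyme gene Ggt5 had 68.1, 66.8 and 88.7 CPM, whereas its relative Ggt1 had 0 counts, as did the stress-induced Chac1, while the related Chac2 had 18.4, 45.9 and 16.4. The glutaredoxins Glrx2 (60.1 ± 7.42), Glrx3 (56.5 ± 4.79) and Glrx (23.2 ± 14.7) were detected and Glrx5 had 8 counts in all.

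Of 16 genes of thioredoxin-fold and repair proteins, 14 were detected, led by Txndc17 at 649 ± 127 CPM, Arrdc3 at 205 ± 34.5 and Txndc5 at 165 ± 21.7. Sesn2 had 5 counts in all, and Sesn3 had 0.063, 3.84 and 4.36 CPM. Among 16 genes of selenoproteins and their synthesis, 13 were detected. Selenop, the selenium carrier of plasma, had 2581, 3339 and 3081 CPM, and Selenok (1232 ± 103), Selenow (1152 ± 158) and Selenof (1105 ± 302) followed. The genes that serve selenocysteine insertion varied between libraries. Sephs2 had 4.63, 3.65 and 21.6 CPM and Secisbp2 4.63, 3.76 and 23.8, both highest in library 3, as was Sepsecs with 2.02, 0.0396 and 5.14. Eefsec had 10.3, 12.6 and 5.68 CPM and Pstk 57.3, 54.1 and 21.0, both lowest in library 3, so these genes shared no order of libraries.

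Of 9 genes that supply NADPH, 7 were detected, with Idh1 (191 ± 20.6 CPM), G6pdx (69.9 ± 26.2) and Pgd (57.8, 79.1 and 52.6 CPM) first. Nnt, the mitochondrial transhydrogenase gene, which carries a deletion in the C57BL/6J substrain, had 43.7, 69.2 and 30.3 CPM. The label C57B6 does not name the substrain, and counts per gene do not show which exons were read. Of 14 oxidant-source genes, 6 were detected. The hydrogen-peroxide-producing oxidase Nox4 had 107, 117 and 72.8 CPM and its partner Cyba 198, 177 and 186, while xanthine dehydrogenase (Xdh) had 126, 214 and 159. The phagocyte oxidase gene Cybb and Nox1 had 0 counts, and Ncf1 had 2 in all. Of 8 metal and heme genes, 6 were detected, led by the metallothionein gene Mt1 with 3374, 2069 and 2602 CPM.

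**Figure D4:**
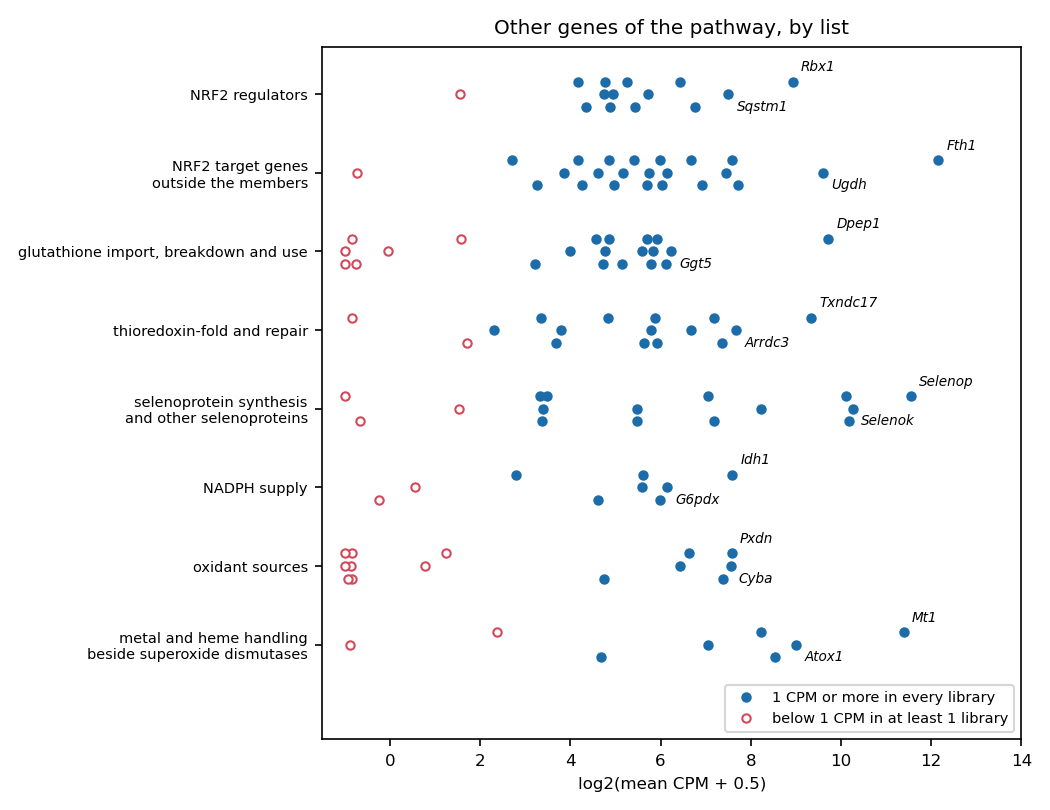
Mean level of other pathway genes as log2(mean CPM + 0.5), by list, with filled circles for detected genes and open circles for the others; the vertical offset within a list only separates points. Fth1, Selenop and Mt1 lie highest, and 8 of the 14 oxidant-source genes are open circles.

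Promoters were searched for the core of the antioxidant response element, the DNA sequence bound by NRF2 with a small MAF protein. Windows from 250 bases before to 50 after each start (RefSeq, GRCm38.p6) were available for 51 of the 59 members, as 65 promoters. The core TGACNNNGC, on either strand, was present in 10 of the 65 (15.4%), beside 12.4% of all 32851 promoters of the same length. The 10 genes were Gsta3, Nfe2l2, Srxn1, Gstm5, Gstm7, Gclm, Prdx1, Mgst1, Txnrd1 and Sod1, whose mean levels ran from 1.67 CPM for Gstm7 (0.285 without library 3) to 3580 for Mgst1. The stricter form TGACTCAGC, which is contained in the core, was present in 1 member promoter, that of Prdx1, beside 0.454% of all promoters. The stretches of Prdx1, Mgst1 and Gclm are printed as examples from a high, the highest and a low member, read on the strand of the match, with the match in capitals.
Prdx1: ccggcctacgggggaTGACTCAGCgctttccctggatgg
Mgst1: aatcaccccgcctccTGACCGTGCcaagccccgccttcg
Gclm: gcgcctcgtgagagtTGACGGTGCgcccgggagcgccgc
All 3 matches lie on the strand opposite to the gene, at chr4:116685466-116685474, chr6:138140471-138140479 and chr3:122245423-122245431 (GRCm38). A match is a description of these letters, and binding was not measured.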

How the data were processed

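RNA was measured in 3 libraries of 1 group. Per the labels' protocols, cDNA was amplified with a SMARTer kit for ultra low input (V4). Base calling software (CASAVA 1.8.2), an aligner (STAR 2.3.0) and the build mm10 are listed in the submitters' processing notes. How reads were counted, on which annotation and strand, is not given in the sources used here. Values deposited by the authors are raw read counts, 1 row per NCBI gene ID. The columns were matched to samples by the number in their titles.

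Symbols and coordinates came from the RefSeq table of GRCm38.p6, in which 25275 IDs matched and 1904 did not. CPM used TMM library sizes from edgeR 4.0.16 (R 4.3.3). Exon lengths were merged over all GENCODE M21 transcripts of a gene. Each library was set against the others with edgeR's quasi-likelihood test after filterByExpr, taking the single library's spread to equal that of the pair, with DESeq2 1.42.0 as an alternative. The quasi-likelihood tests were checked on simulated data, with the recovery and the false calls described above. Fold changes with a library at 0 counts are not printed. Shared sequence was counted in stretches of 50 bases over GENCODE transcripts. Python 3.11.15, numpy 2.4.6, pandas 2.3.3 and scipy 1.17.1 were used.

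The members and lists were chosen with earlier results of these data known. Values are given for the members with the highest means, those in pairs and those that fell below 1 CPM in a library, and for each list the leading genes and those at or near 0. Chosen after their values were seen were Bach1, Hmox1, Chac2, Glrx, Glrx5, Sephs2, Secisbp2, Eefsec, Pstk, Ncf1 and Ccs, and the values of Gstt2, Gsta4, Mgst3, Gstz1, Txnrd2, Gsto1, Gstp2 and Gstm4. Alternatives were other detection thresholds, size factors, filters, tests, pseudocounts and lengths, and leaving out each library. The length of the transcript with the longest coding sequence was added after the data were seen.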

Additional observations from a re-analysis of the deposited data

How the results depend on the processing

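The number of detected members, 42, ran from 30 to 48 over other thresholds, size factors, the mean rule and leaving out each library, and was 45 without library 2. Calls between libraries depended on the tool and filter: against 0 genes, DESeq2's Wald test called 126, 199 and 195 genes for libraries 1, 2 and 3, with 2, 1 and 1 members, the fit without a filter on low counts called 16, 16 and 35, and a filter of 10 CPM in 1 library or more called 2, 19 and 34. In the last fits 0 members were called (edgeR quasi-likelihood test, 4 to 7 members at an unadjusted p under 0.05). With DESeq2's size factors in the edgeR fit, 0 genes were called again. The cause was not tested. Of the 112 alternative values of the 14 pair differences, 109 kept their sign. The exceptions were Gpx3 minus Gpx1, 0.07 in CPM without length, and Sod3 minus Sod1 and Cat minus Sod1, -1.81 and -2.01 on the length of the transcript with the longest coding sequence. Leaving out 1 library moved the mean of 11 of 52 members by over 1.5 times, among them Gsta4, Gclm, Nqo1, Gss, Gstm7 and Gsto2, and the highest mean of the 11 was 22.8 CPM (Gstt2). A library comparison with 1 of the others left out has no residual degrees of freedom, so none was run. No paired analysis was possible because the labels give a single group. A count of 0 allows a level of up to 0.0945 to 0.119 CPM in these libraries, below which a zero and a low level are not separated.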
